A study of Mus musculus with 5 samples.

Results

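The genes described here encode 6 laminin chains (Lama1, Lama2, Lama4, Lama5, Lamb2 and Lamc1), both nidogens (Nid1 and Nid2) and ladinin (Lad1). They were taken by gene symbol from a table of 40624 genes, in which all 9 were present, and all 9 passed the filter on low counts among 17835 tested genes. They were chosen by name with their read counts in mutant and control atria, and the fold change between them, already known. Their differences between mutant and control atria are therefore given as a description, without p-values, and nothing is supported by them.

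Atrial tissue of newborn C57BL/6 mice at postnatal day 1 was compared between 2 mutant and 3 control libraries of polyA RNA. Mutant atria carried SLN-Cre with both Nkx2-5 alleles floxed (Nkx2-5-flox/flox), and control atria carried SLN-Cre with 1 floxed and 1 wild-type allele (Nkx2-5-flox/+). The Cre and at least 1 floxed allele were thus present in every library. Nkx2-5 is a homeodomain transcription factor of heart muscle, and the Cre is named for sarcolipin (Sln), a gene of atrial myocytes, so cells of other types in the tissue were not the target of the deletion.

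Laminins are secreted as trimers of an alpha, a beta and a gamma chain and polymerise into the sheet on which a basement membrane is built. Nidogens bridge that sheet to the type IV collagen network, and cells hold on to it through integrins and dystroglycan. In the heart, basement membranes surround each myocyte, line the endothelium and underlie the mesothelial layer of the epicardium. Ladinin was first described in the anchoring filaments of epithelial basement membranes.

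Counts over all genes summed to 78841494 and 69648013 in mutants 5 and 7 and to between 58501214 and 60899334 in the controls, and levels are given as CPM, counts scaled to a library total of 1e6. The targeted gene Nkx2-5 stood at 5.79 and 5.21 CPM in mutants 5 and 7, against 76.8, 72.1 and 71.3 CPM in controls 2, 4 and 6. The atrial light chain gene Myl7 stood at 9949 to 11074 CPM in all 5 libraries, and the ventricular light chain gene Myl2 at 18.5 and 8.26 CPM in mutants and at 22.3, 16.3 and 95.9 CPM in controls 2, 4 and 6. The labels do not say whether libraries came from separate animals, so errors measure the spread between these samples.

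The promoter of Lad1 is shown because Lad1 had the largest change among the 9 genes, that of Lama5 because it was the 1 laminin chain of the set past the threshold in the lower direction, and that of Lamb2 because it was the 1 promoter of the 5 found that holds the core of the NK2 homeodomain motif. The windows run from 250 bases before to 50 after the transcript start in RefSeq (GRCm38.p6), 5′ to 3′ on the gene's strand, at chr1:135818348-135818647 (plus strand) for Lad1, chr2:180225810-180226109 (minus strand) for Lama5 and chr9:108479612-108479911 (plus strand) for Lamb2.
Lad1: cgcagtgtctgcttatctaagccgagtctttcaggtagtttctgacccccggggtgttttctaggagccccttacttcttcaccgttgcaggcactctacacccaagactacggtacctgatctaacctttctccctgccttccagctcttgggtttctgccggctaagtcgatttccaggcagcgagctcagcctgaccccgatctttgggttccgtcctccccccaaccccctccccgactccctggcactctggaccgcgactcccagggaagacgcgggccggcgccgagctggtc
Lama5: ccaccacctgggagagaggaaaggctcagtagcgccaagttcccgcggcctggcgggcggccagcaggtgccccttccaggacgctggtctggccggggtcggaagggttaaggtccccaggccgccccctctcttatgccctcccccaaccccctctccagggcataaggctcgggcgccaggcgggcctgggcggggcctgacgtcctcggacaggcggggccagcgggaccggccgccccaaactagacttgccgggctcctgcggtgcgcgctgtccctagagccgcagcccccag
Lamb2: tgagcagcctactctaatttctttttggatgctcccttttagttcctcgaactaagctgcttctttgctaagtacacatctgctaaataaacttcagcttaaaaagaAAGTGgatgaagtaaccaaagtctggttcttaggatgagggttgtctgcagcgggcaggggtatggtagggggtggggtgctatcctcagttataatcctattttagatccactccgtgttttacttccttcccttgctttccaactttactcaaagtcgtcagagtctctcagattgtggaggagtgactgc
Capitals mark the letters AAGTG, searched on both strands together with the longer form TNAAGTG, which contains it. RefSeq promoters were matched by symbol for 5 of the 9 genes (Lad1, Lama2, Lama5, Lamb2 and Nid1). AAGTG was found in 1 of the 5, in Lamb2 at 143 bases before the start on the plus strand, and in 46.4% of all 32851 promoter windows of 300 bases. TNAAGTG was found in none of the 5 and in 11.5% of all windows.

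Lad1 was the gene with the largest difference. Lad1 (ENSMUSG00000041782, chromosome 1, 137715556 to 137728894 in mm9) had 2.15 and 2.58 CPM in mutants 5 and 7, against 27.8, 28.3 and 19.7 CPM in controls 2, 4 and 6. Both mutants lay far below the lowest control, and control 6 was the lowest of the controls. The mean was 2.37 ± 0.30 CPM in mutants (SD, n = 2) and 25.3 ± 4.85 CPM in controls (SD, n = 3), a log2 fold change of -3.42 ± 0.20 (SE), or 10.7-fold lower. Behind these values stood 168 and 176 reads in mutants and 1641, 1684 and 1211 reads in controls.

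The profile of Lad1 over the 5 libraries was set beside that of every other tested gene, by the Euclidean distance between log2 CPM values centred on each gene's mean. The 3 nearest genes were Nppa, the precursor of atrial natriuretic peptide (distance 0.676), Nkx2-5 itself (0.679) and the noncoding locus 2210020M01Rik (0.753). Nppa had 849 and 1194 CPM in mutants, against 6207, 6769 and 5281 CPM in controls 2, 4 and 6, so that control 6 was also its lowest control. The likeness rests on 5 libraries and is mostly the difference between the groups, for which Lad1 was chosen.

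**Figure D1:**
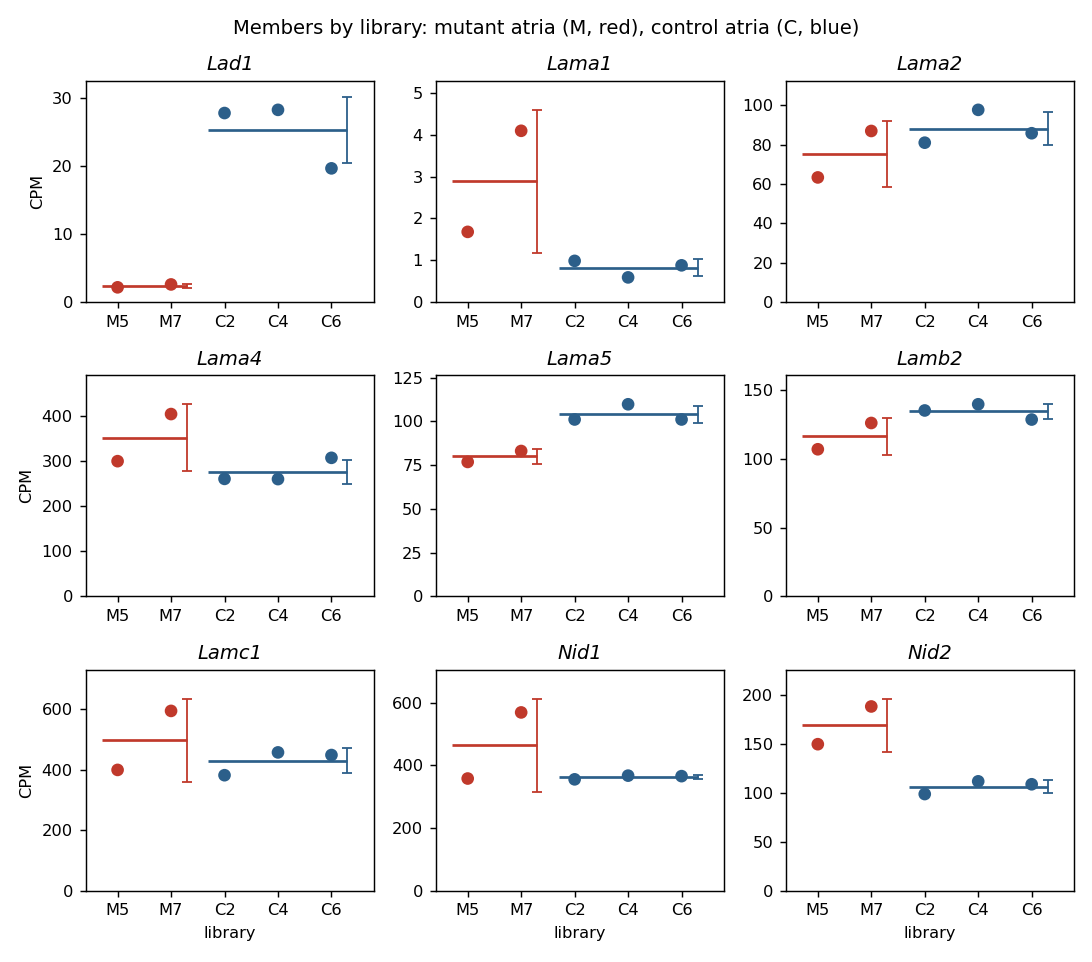
Level of each of the 9 genes in CPM (y axis, from 0) in each library (x axis; red, mutants M5 and M7; blue, controls C2, C4 and C6), with the group mean as a line and the SD as a bar. Lad1 and Lama5 lie lower in both mutants than in every control, Lama1 and Nid2 lie higher, and Nid1 and Lamc1 are raised above the controls in M7 but not in M5.

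The threshold used throughout was a Benjamini-Hochberg adjusted p of 0.05 over all tested genes, from the quasi-likelihood test of edgeR. Past it were 4 of the 9 genes, 2 higher (Lama1 and Nid2) and 2 lower (Lad1 and Lama5), beside 6.58% of all tested genes, 3.02% higher and 3.57% lower. The groups did not overlap for 5 of the 9, with Lama1 and Nid2 higher and Lad1, Lama5 and Lamb2 lower, beside 37.9% of all tested genes, 18.6% higher and 19.2% lower. With single libraries left out, 1 to 5 of the 9 were higher and 1 to 3 lower: 5 were higher without mutant 5, 1 was higher without mutant 7 or any 1 control, and 1 was lower without control 4. Nothing is read from these counts, since the genes were chosen with the same contrast known. The median log2 fold change was 0.21 over the 9 genes and 0.01 over all tested genes.

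The alpha chains give a laminin its binding to cell receptors, and the 4 alpha chain genes differed in opposite directions. Lama5, the alpha chain of many epithelial and vascular basement membranes, was lower in mutants. It lies on chromosome 2 (ENSMUSG00000015647, 179911252 to 179960507, mm9) and had 76.8 and 83.1 CPM in mutants 5 and 7, against 101, 110 and 101 CPM in controls 2, 4 and 6. The highest mutant stood below the lowest control. Lama5 fell by 0.38 ± 0.07 (SE) on the log2 scale, and it was no longer past the threshold without control 4.

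Lama1, the alpha chain of the early embryo and of some epithelia, was scarce in every library. It lies on chromosome 17 (ENSMUSG00000032796, 68046675 to 68171789, mm9) and had 1.68 and 4.10 CPM in mutants 5 and 7, against 0.98, 0.59 and 0.88 CPM in controls 2, 4 and 6. Both mutants were above every control, and mutant 7 stood at 2.44 times mutant 5. The log2 fold change was 1.82 ± 0.40 (SE), from 131 and 280 reads in mutants and 58, 35 and 54 reads in controls. Lama1 was not past the threshold without control 2, control 4, control 6 or mutant 7, nor with limma-voom, and its log2 fold change ran between 1.03 and 2.32 as single libraries were left out. Its 3 nearest profiles were those of the chemokine receptor gene Ccr2 (distance 0.209), Emr4 (0.246) and Hamp2 (0.436). In controls 2, 4 and 6 Emr4 stood at 0.29, 0.12 and 0.23 CPM, and Hamp2 at 0.46, 0.39 and 0.26 CPM. These levels lay under the pseudocount of 0.5 CPM.

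Lama4, the alpha chain known from blood vessels and muscle, was the most abundant alpha chain per length in every library. It lies on chromosome 10 (ENSMUSG00000019846, 38685761 to 38829839, mm9) and had 299 and 404 CPM in mutants 5 and 7, against 260, 260 and 307 CPM in controls 2, 4 and 6. Mutant 5 lay within the control range and mutant 7 above it, with a log2 fold change of 0.35 ± 0.14 (SE) that was not past the threshold. That of Lama4 was 0.12 without mutant 7 and 0.55 without mutant 5. Lama2, the main alpha chain of skeletal muscle basement membrane and a gene of congenital muscular dystrophy, lies on the same chromosome (ENSMUSG00000019899, 26701301 to 27336602). It had 63.4 and 87.0 CPM in mutants 5 and 7, against 81.0, 97.8 and 85.9 CPM in controls 2, 4 and 6, so that mutant 5 was the lowest library and mutant 7 lay among the controls. The log2 fold change of Lama2 was -0.23 ± 0.15 (SE) and was not past the threshold.

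The beta and gamma chains in the set showed smaller differences. Lamb2, a beta chain known from the neuromuscular synapse and the kidney filter, had 107 and 126 CPM in mutants 5 and 7, against 135, 140 and 128 CPM in controls 2, 4 and 6 (ENSMUSG00000052911, chromosome 9, 108382390 to 108392751). The groups did not overlap, though mutant 7 came close to control 6, and the log2 fold change of -0.21 ± 0.08 (SE) was not past the threshold. It passed without mutant 7, at -0.33. Lamc1, the gamma chain of most laminins, had 399 and 594 CPM in mutants 5 and 7, against 382, 457 and 448 CPM in controls 2, 4 and 6 (ENSMUSG00000026478, chromosome 1, 155067186 to 155179669). Mutant 5 lay among the controls and mutant 7 above them all, and the log2 fold change of 0.21 ± 0.18 (SE) was not past the threshold. That of Lamc1 turned to -0.11 without mutant 7 and was 0.47 without mutant 5.

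The nidogens, which link laminin to type IV collagen, behaved differently from each other. Nid2 (ENSMUSG00000021806, chromosome 14, 20570560 to 20630418, mm9) had 150 and 188 CPM in mutants 5 and 7, against 98.7, 112 and 109 CPM in controls 2, 4 and 6. Both mutants stood above every control, and Nid2 rose by 0.67 ± 0.10 (SE) on the log2 scale, or 1.59-fold. It stayed past the threshold whichever library was left out, with log2 fold changes of 0.49 to 0.82. Its nearest profiles were those of the DNA polymerase gene Polq (distance 0.060), 9130208D14Rik (0.100) and Klhl6 (0.114).

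Nid1 (ENSMUSG00000005397, chromosome 13, 13529969 to 13602334, mm9) had 358 and 569 CPM in mutants 5 and 7, against 356, 367 and 366 CPM in controls 2, 4 and 6. The 3 controls were close to each other, with a coefficient of variation of 1.76%, and mutant 5 stood with them while mutant 7 was far above. The log2 fold change of 0.35 ± 0.19 (SE) was not past the threshold. Without mutant 7 it was -0.02, and without mutant 5 it was 0.65 and past the threshold. The gene with the nearest profile to Nid1 was Pxdn (distance 0.063), which encodes peroxidasin, an enzyme that crosslinks type IV collagen. Per kilobase of transcript the ratio of Nid2 to Nid1 was 0.52 and 0.41 in mutants 5 and 7, against 0.35, 0.38 and 0.37 in controls 2, 4 and 6, above every control in both mutants.

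**Figure D2:**
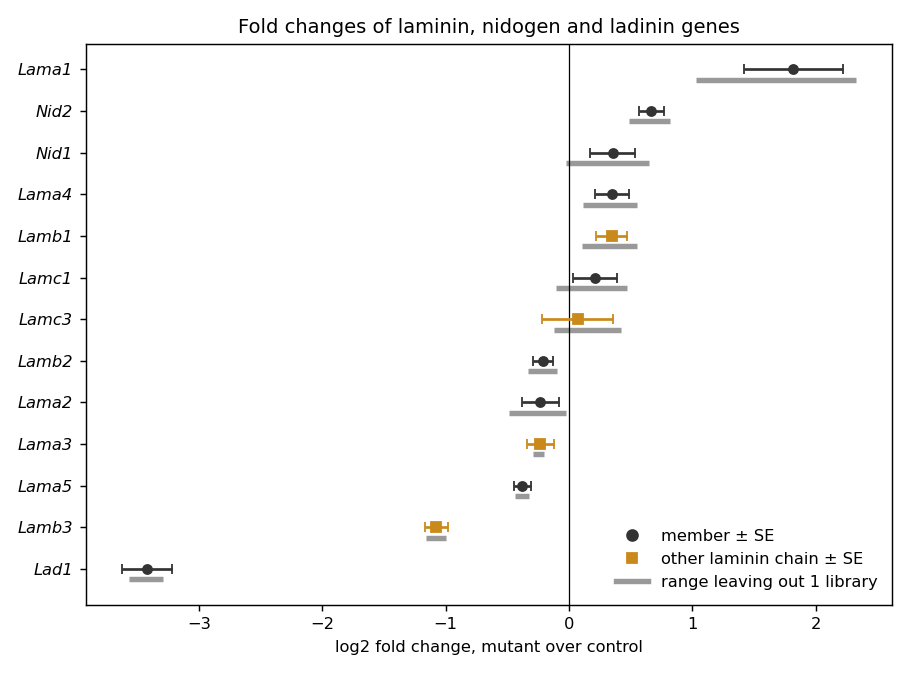
Log2 fold change of mutant over control (x axis) with its SE for the 9 genes (circles) and 4 other laminin chains (squares), ordered by value, with the range over fits that leave out 1 library as a grey line. Lad1 at -3.42 and Lama1 at 1.82 stand at the ends, and the grey lines of Nid1, Lamc1 and Lamc3 cross 0.

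Nid2 shares 437 exonic bases with Rtraf (listed as 2700060E02Rik) on the opposite strand. The sources used here do not say if reads were counted by strand, and without that the reads of both genes cannot be told apart where they overlap. Rtraf had 148 and 138 CPM in mutants 5 and 7, against 146, 163 and 152 CPM in controls 2, 4 and 6, a log2 fold change of -0.11 ± 0.07 (SE, adjusted p = 0.45, edgeR). Lama2 and Nid1 share 631 and 143 exonic bases with genes on the opposite strand that have no counts in the table.

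The genes nearest in profile to the other genes of the set were Stab2 for Lama2 (distance 0.064), Ptpre for Lama4 (0.049), Apod for Lama5 (0.050), Tm7sf2 for Lamb2 (0.016) and Pcdhb18 for Lamc1 (0.043), each over 5 libraries. Stab2 stood at 0.22 to 0.61 CPM and Apod at 0.18 to 0.44 CPM, where the pseudocount of 0.5 CPM shrinks differences. Their log2 fold changes were -0.58 and -0.94, beside -0.23 for Lama2 and -0.38 for Lama5. Those of Ptpre, Tm7sf2 and Pcdhb18 were 0.35, -0.24 and 0.32, beside 0.35 for Lama4, -0.21 for Lamb2 and 0.21 for Lamc1.

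Levels of different genes were compared as CPM per kilobase of the longest protein-coding transcript. In control atria Nid1 (59.6 ± 1.05), Lamc1 (56.3 ± 5.40) and Lama4 (45.6 ± 4.47) were the highest of the 9 genes (CPM per kilobase, SD, n = 3), and Nid1 and Lamc1 did not differ beyond their spread. Lamb2 (23.9 ± 0.99) and Nid2 (21.8 ± 1.40) came next. Lama2 (9.18 ± 0.89), Lama5 (9.13 ± 0.44) and Lad1 (8.44 ± 1.62) followed, with overlapping ranges of mean ± SD. Lad1 stood at 9.30, 9.46 and 6.57 in controls 2, 4 and 6. Lama1 was lowest at 0.086 ± 0.021. In mutant atria Lad1 stood at 0.79 ± 0.10 CPM per kilobase (SD, n = 2), still above Lama1 at 0.30 ± 0.18, and Nid2 at 34.6 ± 5.59 stood above Lamb2 at 20.7 ± 2.39. In the authors' deposited table, which gives 1 pooled value per group, the RPKM was 0.72 in mutants and 7.82 in controls for Lad1, 31.4 and 20.2 for Nid2, and 5.54 and 7.33 for Lama5. The order of genes depends on the length used. The control RPKM was 55.7 for Nid1, 39.0 for Lamc1 and 22.2 for Lamb2. That of Lama4 was 18.2, below Lamb2 and Nid2, with a listed length of 14054 bases where its longest coding transcript has 6046.

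**Figure D3:**
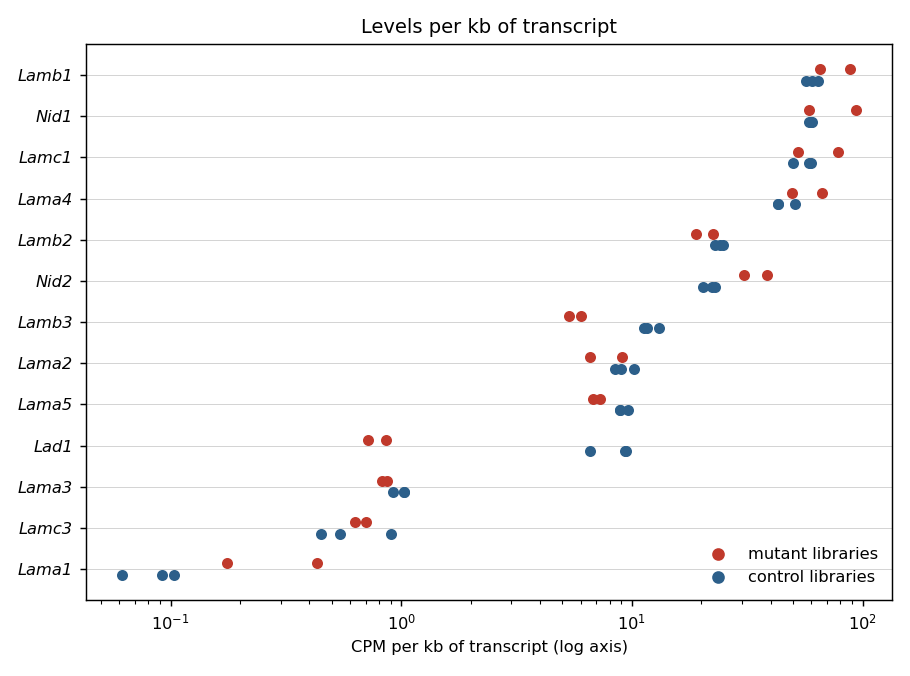
CPM per kilobase of transcript (x axis, log scale) in the mutant libraries (red) and control libraries (blue) for the 9 genes and 4 other laminin chains, ordered by the control mean. Nid1, Lamc1, Lama4 and Lamb1 lie highest, Lama1 lies lowest, and Lad1 shows the widest gap between groups.

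Since a laminin needs 1 chain of each kind, the share of each chain among its kind was taken per library from counts per kilobase of transcript. Lama4 made up 77.5% and 79.1% of alpha chain RNA in mutants 5 and 7, against 70.0%, 67.4% and 72.8% in controls 2, 4 and 6. Lama5 made up 10.6% and 8.65% in mutants, against 14.4%, 15.1% and 12.7% in controls, and Lama2 10.3% and 10.7% in mutants, against 13.7%, 16.0% and 12.8% in controls. Both mutants were above every control for Lama4 and below every control for Lama5 and Lama2. Lama1 stayed under 1% in every library. These shares depend on the transcript length used for each gene: with the lengths of the deposited table, the mean share of Lama4 was 63.1% in mutants and 52.7% in controls.

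Among beta chains, Lamb2 held 21.1% and 19.3% in mutants 5 and 7, against 25.6%, 25.8% and 23.2% in controls 2, 4 and 6, and the rest was Lamb1 and Lamb3. The share of Lamb1 was 72.2% and 76.1% in mutants, against 60.5%, 62.5% and 65.0% in controls. Lamc1 was the gamma chain in 95.7% and 97.6% of gamma chain RNA in mutants, against 95.4%, 95.5% and 94.9% in controls. Lama4, Lamb1 and Lamc1 were the leading chains of their kinds in all 5 libraries.

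**Figure D4:**
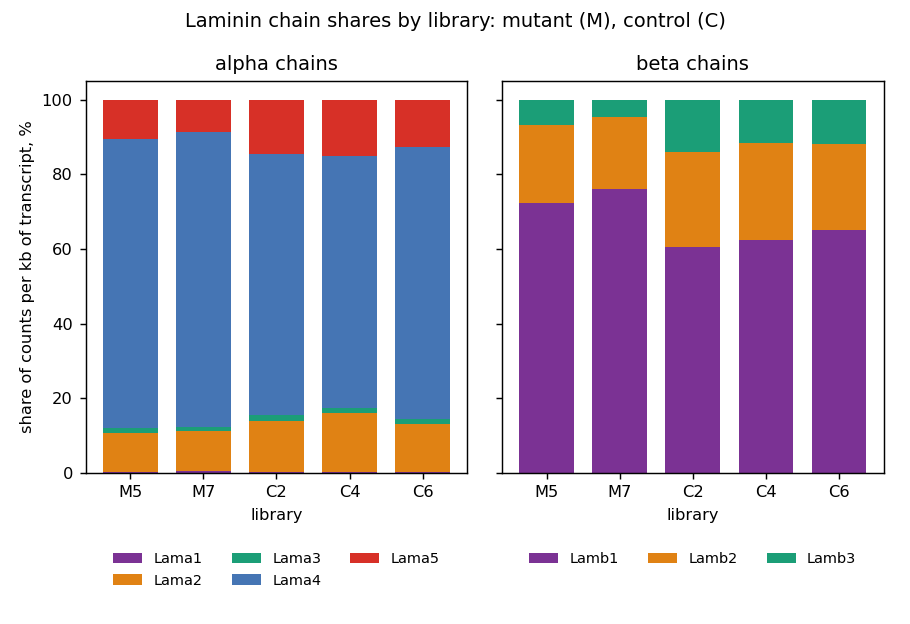
Share of each chain in percent of counts per kilobase of transcript (y axis) within alpha and beta chains, for each library (x axis; mutants M5 and M7, controls C2, C4 and C6). Lama4 and Lamb1 take a larger share in both mutants than in the controls, and Lamb3, Lama5 and Lama2 take a smaller one.

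Further laminin chains were tested in the same fit. Lamb3, a beta chain of the laminin of epithelial anchoring filaments, fell. Lamb3 had 29.3 and 26.1 CPM in mutants 5 and 7, against 63.8, 54.8 and 56.5 CPM in controls 2, 4 and 6, a log2 fold change of -1.07 ± 0.09 (SE; Benjamini-Hochberg adjusted p = 8.0e-04 in the edgeR quasi-likelihood fit). Every control was above both mutants. Lamb3 kept its call in all 12 alternative fits. Lama3 (-0.23 ± 0.11), Lamb1 (0.35 ± 0.13) and Lamc3 (0.07 ± 0.29) did not pass, and Lamb1 passed without mutant 5.

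Ladinin is best known from epithelial anchorage. The genes listed for that setting were chosen with earlier results of these data known, so nothing is read from their counts. Of 11 tested genes 6 fell, beside 3.57% of all tested genes, 5 did not pass, and 0 rose. Their median log2 fold change was -0.56, against 0.01 over all tested genes. Among these, the plakin genes Evpl and Ppl, whose products tie intermediate filaments to the cell cortex, fell by 0.99 ± 0.09 (SE) and 0.87 ± 0.07 on the log2 scale, and the simple epithelial keratin genes Krt19 and Krt8 by 0.79 ± 0.07 and 0.56 ± 0.09. Other plakin genes of the list did not pass: Dsp stood at 449.2 and 425.7 CPM in mutants 5 and 7, against 355.2, 285.0 and 391.8 CPM in controls 2, 4 and 6, above every control in both mutants (log2 fold change 0.35 ± 0.13, SE), and Dst and Plec had log2 fold changes of 0.18 ± 0.18 and 0.05 ± 0.16. The other calls were Krt18, lost without mutant 7, control 2 or control 4 (adjusted p up to 0.091, edgeR), and Krt14, lost without mutant 5, control 4 or control 6 (up to 0.090). Col17a1, a transmembrane collagen of the same anchoring structures, had 0.58 and 0.996 CPM in mutants 5 and 7, against 0.87, 1.24 and 1.56 CPM in controls 2, 4 and 6, and did not pass.

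Markers of the mesothelial layer moved with Lad1, Lama5, Lamb3 and the keratins. Of 5 mesothelial markers, 4 fell (Upk3b, Upk1b, Msln and Krt19, which is also in the epithelial list) and Wt1, at -0.23 ± 0.09 (log2 fold change, SE), did not pass. Their summed level was 648 and 647 CPM in mutants 5 and 7, against 1113, 1058 and 942 CPM in controls 2, 4 and 6, which is 1.60-fold lower in mutants where Lad1 was 10.7-fold lower. Per 100 CPM of these markers Lad1 stood at 0.33 and 0.40 CPM in mutants 5 and 7, against 2.50, 2.68 and 2.09 CPM in controls 2, 4 and 6. On the same scale Lamb3 stood at 4.53 and 4.03 in mutants, against 5.73, 5.18 and 6.00 in controls, and Lama5 at 11.9 and 12.9 in mutants, against 9.08, 10.4 and 10.7 in controls. Relative to this sum Lad1 and Lamb3 were still lower in both mutants than in every control, and Lama5 was higher. Most of the sum was Upk3b and Msln, at means of 271 and 224 CPM in mutants and 467 and 343 CPM in controls. The direction for Lama5 depends on the marker. Its log2 fold change of -0.38 was a smaller fall than in the 4 markers that fell (-0.79 to -0.53) and a larger one than in Wt1. Other epithelial markers were scarce: Krt5 had no reads in 4 of the 5 libraries, Epcam stood between 0.10 and 0.17 CPM in all 5, and of the 3 tested Krt14 passed while Epcam and Cdh1 did not. Their sum was 18.2 and 20.9 CPM in mutants, against 25.3, 31.7 and 31.1 CPM in controls, nearly all of it Krt14. The part of these cells in the differences was not tested beyond these ratios, and in bulk tissue fewer cells of a type and less RNA per cell cannot be told apart.

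All 9 genes were higher in mutant 7 than in mutant 5, as were 21 of 24 other basement membrane genes and 48.3% of all tested genes. The other laminin chains did not share this, with 2 of 5 higher in mutant 7. Of laminin receptors and their partners 10 of 16 were higher in mutant 7. Lama4, Lamc1 and Nid1 exceeded every control in mutant 7 but not in mutant 5, a pattern found in 16.5% of all tested genes. The ratio of mutant 7 to mutant 5 grew with transcript length over the whole table: its median log2 value was -0.10 for transcripts under 2 kb (31.9% of 3701 genes higher in mutant 7) and 0.26 for transcripts of 8 kb or more (82.5% of 835 genes). The transcripts of the 9 genes ran from 2.99 kb for Lad1 to 11.4 kb for Lama5. Nid1, at 6.09 kb, had a log2 ratio of 0.67 and Lamc1, at 7.62 kb, of 0.57, against a median of 0.14 for all transcripts of 6 to 8 kb. Mutant over control also moved with length, to a median log2 fold change of 0.10 at 8 kb or more. With that trend removed from each library, an alternative chosen after seeing the data, the same number of the 9 genes was past the threshold (2 higher and 2 lower), with log2 fold changes of -3.42 for Lad1, 1.69 for Lama1, -0.47 for Lama5 and 0.63 for Nid2.

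Endothelial markers also stood higher in mutant 7. Their sum over 5 genes, none of which was at 0, was 1058 and 1326 CPM in mutants 5 and 7, against 954, 979 and 1012 CPM in controls 2, 4 and 6, and 0 of the 5 passed in edgeR or limma-voom, 1 in DESeq2 and 3 at an unadjusted p under 0.05 (edgeR). Per 100 CPM of these markers Nid2 stood at 14.1 and 14.2 CPM in mutants, against 10.3, 11.4 and 10.8 CPM in controls, above every control in both. Nid1 stood at 33.9 and 42.9 CPM on that scale in mutants, against 37.3, 37.5 and 36.1 CPM in controls, and Lama4 at 28.3 and 30.4 CPM in mutants, against 27.3, 26.5 and 30.3 CPM in controls. For Nid1 and Lama4 the groups overlapped. Fibroblast markers were lower in mutants (3754 and 3698 CPM summed, against 5604, 4687 and 4631 CPM in controls; Lum passed and the other 4 did not in edgeR, while 4 of the 5 were called by DESeq2). Per 100 CPM of fibroblast markers Lama2 stood at 1.69 and 2.35 CPM in mutants, against 1.45, 2.09 and 1.85 CPM in controls. The groups overlapped. Most of the fibroblast sum was Col1a1 and Col1a2. Col1a1 stood at 1722 and 1762 CPM in mutants 5 and 7, against 2680, 2139 and 2149 CPM in controls 2, 4 and 6. Col1a2 stood at 1681 and 1635 CPM in mutants, against 2378, 2030 and 2024 CPM in controls. The part of these cell types in the differences was not tested.

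**Figure D5:**
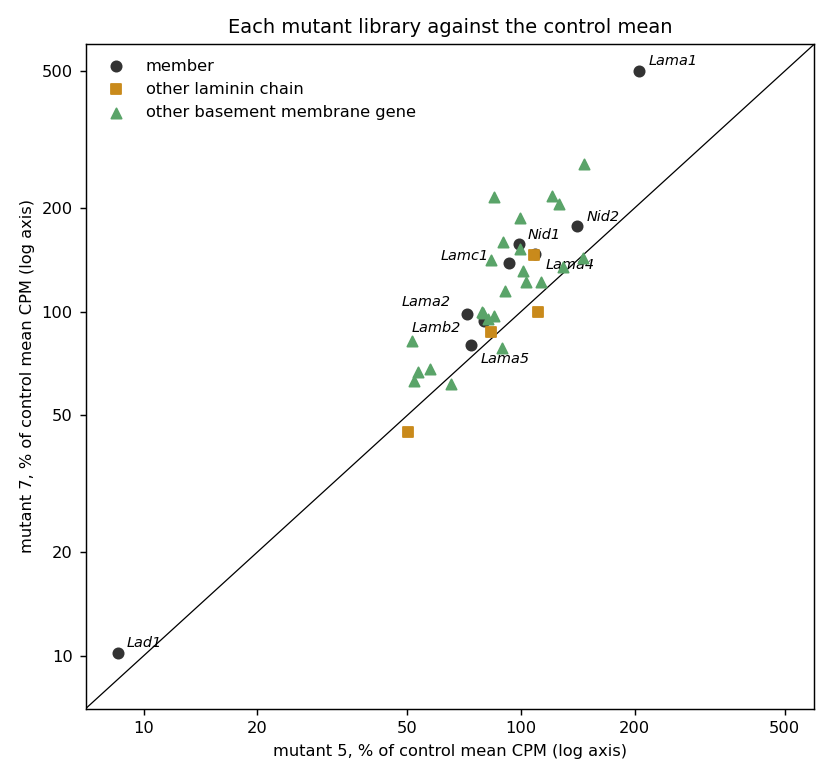
Level of each gene in mutant 7 (y axis) against mutant 5 (x axis), both in percent of the control mean CPM on log scales, for the 9 genes (circles, named), 4 other laminin chains (squares) and 24 other basement membrane genes (triangles); the line marks equal values. All 9 circles lie above the line, from Lad1 at 8.52% and 10.2% to Lama1 at 206% and 502%.

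Other basement membrane proteins were tested beside the laminins and nidogens. Of 24, 2 rose and 4 fell, beside 3.02% and 3.57% of all tested genes. Their median log2 fold change was 0.17. Without mutant 5, 10 rose and 2 fell; 1 rose without control 2 or control 4, and 2 fell without control 2 and 1 without control 4. The type IV collagen genes, which nidogens join to laminin, went both ways: Col4a5 and Col4a6 rose by 0.40 ± 0.07 (SE) and 0.53 ± 0.08 on the log2 scale, and Col4a3 and Col4a4 fell by 0.73 ± 0.16 and 0.80 ± 0.15. Col4a3 and Col4a4 lost their calls without mutant 5, control 2 or control 4 (adjusted p up to 0.12 and 0.082, edgeR), and Col4a5 without control 2 or control 4 (up to 0.067). The most abundant pair did not pass, Col4a1 with a log2 fold change of 0.73 ± 0.20 and Col4a2 with 0.76 ± 0.25 (SE), and both passed without mutant 5 and Col4a1 also with DESeq2. The other falls were those of Fbln1, a matrix glycoprotein gene (-0.66 ± 0.09), and Egflam, which encodes the dystroglycan ligand pikachurin (-0.67 ± 0.12, lost without control 4, adjusted p = 0.053, edgeR). The proteoglycan genes Hspg2 and Agrn had log2 fold changes of 0.59 ± 0.47 and 0.16 ± 0.23 (SE), did not pass, and turned to -0.24 and -0.27 without mutant 7. Perlecan's gene Hspg2 stood at 452 and 1149 CPM in mutants 5 and 7, against 458, 623 and 514 CPM in controls 2, 4 and 6.

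Of 16 genes of laminin receptors and their partners, 2 rose and 0 fell, beside 3.02% and 3.57% of all tested genes. Without control 2 or control 4, 1 rose, and more rose without mutant 5, a fit that leaves 1 mutant. Itga6, which encodes a laminin-binding integrin subunit, had 282 and 358 CPM in mutants 5 and 7, against 196, 210 and 224 CPM in controls 2, 4 and 6, and rose by 0.61 ± 0.11 (SE) on the log2 scale, which did not hold without control 2 or control 4 (adjusted p up to 0.073, edgeR). The syndecan gene Sdc3 rose by 0.44 ± 0.07. Itgb1, whose product pairs with that of Itga6 (0.22 ± 0.09), the muscle laminin receptor gene Itga7 (0.25 ± 0.08) and the dystroglycan gene Dag1 (0.10 ± 0.08) did not pass, and Dag1 turned to -0.03 without mutant 7. The log2 fold change of Itgb1 ran between 0.08 and 0.34 as single libraries were left out. Of 13 tested enzymes that build the laminin-binding sugar of dystroglycan, 0 passed in edgeR or limma-voom, 1 was lower with DESeq2 and 2 had an unadjusted p under 0.05 (edgeR). Their median log2 fold change was -0.02, and 6.58% of all tested genes passed in edgeR.

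The dystrophin complex links dystroglycan to the cytoskeleton of muscle. Of its 13 tested genes 10 did not pass, where 6.58% of all tested genes passed, and the median log2 fold change was 0.02. The syntrophin gene Sntb1 fell by 0.93 ± 0.12 and the dystrobrevin gene Dtnb rose by 0.60 ± 0.09. Dystrophin (Dmd) stood at 70.4 and 69.4 CPM in mutants, against 68.9, 65.7 and 75.8 CPM in controls, and did not pass. Over all 82 tested genes of the pathway lists 5 rose and 14 fell, 23.2% of them in all, beside 6.58% of all tested genes.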

How the data were processed

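PolyA RNA of atria was sequenced from TruSeq libraries made with 250 ng of total RNA, per the labels' protocols. The table deposited by the authors holds raw counts for each library, per the file headers, and RPKM values pooled to 1 per group. The submitters' processing notes name mm9, TopHat2 2.0.4, HTSeq 0.5.4p3 and DESeq without roles. The deposited table also holds the authors' log2 ratio, p-value and adjusted p-value, which were not used here. Rows that name no gene were left out of totals: no_feature held 3.97% to 6.03% and ambiguous 2.31% to 3.18% of counts. Coordinates are those listed in the table; for 8 of the 9 genes they have the length of the coding span within 3 bases.

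The tests on these counts used edgeR 4.0.16 under R 4.3.3 (filterByExpr at its defaults of 10 per library and 15 in total, TMM, robust quasi-likelihood test, two-sided, prior count 0.125, Benjamini-Hochberg over 17835 genes, threshold 0.05). The fit was also run on counts simulated from its own means and dispersions. Those counts held no trend with transcript length, so that run cannot show how calls hold under such a trend. CPM are counts over TMM-scaled totals, and the SE is the log2 fold change over the square root of F. Profiles were compared with a pseudocount of 0.5 CPM. Transcript lengths and exon overlaps came from GENCODE vM21. Alternatives were DESeq2 1.42.0, its size factors, library totals, 2 other filters, limma-voom (limma 3.58.1), a threshold of 0.01 and leaving out each library. An offset for transcript length was chosen after seeing the data.

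The 9 genes and all lists were chosen with earlier results of these data known. The rule for named genes took the 9 and the 3 nearest profiles of each (the nearest alone is printed for 6). It also took the list genes past the threshold, 10 further list genes whatever their values, Nkx2-5 and Sln. Other list or marker genes named were picked after their values were seen. Myl2 and Rtraf are in no list, and Rtraf is named because it overlaps Nid2. Cell type markers (5 genes a list) were cardiomyocyte, endothelial, fibroblast, smooth muscle, mesothelial, Schwann, neuron, leukocyte, erythroid and other epithelium. Some genes that this rule takes are not reported here.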

Additional observations from a re-analysis of the deposited data

How the results depend on the processing

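The counts of calls depended on single libraries and on the tool. Over all tested genes DESeq2 called 960 higher and 1044 lower, the threshold of 0.01 left 157 and 234, and leaving out 1 library gave 203 to 910 higher and 306 to 804 lower. Of the 9 genes, 1 to 5 were higher and 1 to 3 lower with 1 library left out, 1 was higher with limma-voom, and 1 was higher and 1 lower at 0.01. Of the pathway genes, 3 to 19 were higher and 8 to 13 lower with 1 library left out, and 3 were higher and 8 lower at 0.01; the 19 came without mutant 5. With the lengths of the deposited table the mean shares of Lama4, Lamb1 and Lamc1 were 63.1%, 57.5% and 95.7% in mutants and 52.7%, 44.6% and 93.9% in controls, where transcript lengths gave 78.3%, 74.2% and 96.6% in mutants and 70.1%, 62.7% and 95.3% in controls. Leaving out 1 library moved those shares to 77.5% to 79.1%, 72.2% to 76.1% and 95.7% to 97.6% in mutants and 68.7% to 71.4%, 61.5% to 63.7% and 95.1% to 95.4% in controls. With 1 library left out the log2 fold change ran between -0.11 and 0.47 for Lamc1, -0.024 and 0.65 for Nid1, -0.24 and 1.11 for Hspg2, -0.27 and 0.49 for Agrn and -0.030 and 0.21 for Dag1, in each case lowest without mutant 7 and highest without mutant 5. That of Lamc3 ran between -0.12 without control 2 and 0.42 without control 6. The cause of these changes was not tested. The offset for transcript length moved no count of calls past 1.5 times. It turned no sign among the 9 genes, other laminin chains, pathway genes past the threshold and list genes taken whatever their values. Signs of the other genes named, such as Plec, Dst, Dmd and the markers, were not checked with it. Leaving out mutant 5 or mutant 7 leaves 1 mutant, which is assumed to vary like the controls. No paired analysis was possible because the groups share no replicate number.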

Other observations

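Smooth muscle and pericyte markers summed to 1875 and 1514 CPM in mutants 5 and 7. In controls 2, 4 and 6 they summed to 582, 580 and 476 CPM. Most of the sum was Acta2, at 1693 and 1244 CPM in mutants, against 435, 432 and 366 CPM in controls. Acta2 rose (log2 fold change 1.84 ± 0.14, SE) and the other 4 did not pass in edgeR. All 5 log2 fold changes were positive. DESeq2 and limma-voom each called 2 of the 5, and 3 had an unadjusted p under 0.05 (edgeR). Erythroid markers summed to 1004 and 1029 CPM in mutants, against 747, 676 and 846 CPM in controls, and Hba-a1 rose. Of the cardiomyocyte, Schwann, neuron and leukocyte markers, 0 of 5 passed in each list in edgeR or limma-voom; DESeq2 called 0, 1, 1 and 1 in that order, and 1, 1, 1 and 3 had an unadjusted p under 0.05 (edgeR). Leukocyte markers summed to 171 and 167 CPM in mutants, against 146, 138 and 161 CPM in controls. Sln, whose name the Cre carries, did not pass, at -0.17 ± 0.07 (log2 fold change, SE).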
